A study of Arabidopsis thaliana with 6 samples.

Results

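Abscisic acid (ABA) synthesis and response was followed through 10 genes, taken by locus from the 31335 genes of the count table: the synthesis gene NCED3, the phosphatase genes ABI1, ABI2, HAB1, HAI1, HAI2 and HAI3, the transcription factor gene ABF3, and the response genes RAB18 and RD29B. Transcripts were counted in leaves of 28-day-old Arabidopsis thaliana of accession Col-0, from soil-grown plants under long days, in 3 wild-type libraries and 3 libraries of ddcc, a drm1 drm2 cmt2 cmt3 quadruple mutant. The 4 mutated genes encode DNA methyltransferases that act on cytosines outside CG sites, and the comparison asks which transcripts differ when that methylation is lost. The labels give no allele names, number of plants per library, harvest time or watering, so the p-values measure the spread between these libraries, which may be technical in part.

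ABA is a plant hormone that rises under drought, salt and cold and closes stomata. It is made from carotenoids, and the cleavage by 9-cis-epoxycarotenoid dioxygenases such as NCED3 is the rate-limiting step. ABA-bound PYR/PYL receptors inhibit clade A type 2C protein phosphatases (PP2Cs), which releases SnRK2 kinases to phosphorylate bZIP factors such as ABF3. These factors bind the ABA-responsive element (ABRE), whose core is ACGTG, in front of genes such as RAB18 and RD29B, and the PP2C genes are themselves induced by ABA, a negative feedback on the pathway.

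Promoter stretches are shown for both tandem RD29 genes, whose regulatory elements are textbook examples, and for RAB18 and HAI2, each with several ABRE cores. Each stretch is the 250 bases before the annotated gene start, 5′ to 3′ on the gene's strand, from RefSeq TAIR10.1. Capitals mark the ABRE core ACGTG and the core of the drought- and cold-responsive element (DRE), ACCGAC or GCCGAC, on either strand.
RD29B, chr5:21236771-21237020, plus strand: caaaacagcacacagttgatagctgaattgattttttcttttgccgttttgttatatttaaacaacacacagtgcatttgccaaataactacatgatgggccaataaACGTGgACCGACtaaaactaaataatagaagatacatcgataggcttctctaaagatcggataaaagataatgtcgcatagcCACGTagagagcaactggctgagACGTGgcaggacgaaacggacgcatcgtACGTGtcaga
RD29A, chr5:21240467-21240716, plus strand: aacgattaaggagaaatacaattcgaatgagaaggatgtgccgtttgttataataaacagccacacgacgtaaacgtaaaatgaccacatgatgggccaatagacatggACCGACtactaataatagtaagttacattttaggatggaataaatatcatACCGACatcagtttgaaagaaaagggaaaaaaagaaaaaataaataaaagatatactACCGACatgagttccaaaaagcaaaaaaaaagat
RAB18, chr5:26519448-26519697, minus strand: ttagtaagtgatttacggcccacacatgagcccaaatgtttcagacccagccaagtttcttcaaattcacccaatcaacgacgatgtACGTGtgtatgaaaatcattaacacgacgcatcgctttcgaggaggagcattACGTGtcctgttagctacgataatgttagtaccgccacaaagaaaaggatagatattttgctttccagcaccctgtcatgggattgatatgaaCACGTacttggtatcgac
HAI2, chr1:2282829-2283078, minus strand: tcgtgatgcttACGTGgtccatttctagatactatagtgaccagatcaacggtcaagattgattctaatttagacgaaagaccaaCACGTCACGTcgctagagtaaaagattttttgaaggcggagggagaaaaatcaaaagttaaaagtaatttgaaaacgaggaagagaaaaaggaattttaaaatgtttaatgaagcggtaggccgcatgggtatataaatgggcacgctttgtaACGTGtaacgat

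The RD29B stretch held 4 ABRE cores and 1 DRE core, and that of its neighbour RD29A held 0 ABRE cores and 3 DRE cores. RAB18 had 3 ABRE cores and HAI2 had 4, of which a pair lies end to end on the other strand. HAI3 had 2 and HAB1 and ABF3 had 1 each, so 6 of the 10 genes carried at least 1 ABRE core and 4 carried at least 2. Among all 27443 protein-coding promoters of the same length, 22.9% held at least 1 ABRE core and 8.84% at least 2. No match was found in this window for NCED3, ABI1, ABI2 or HAI1, which says only that these letters are not there. The same limit holds for the missing ABRE core of RD29A. Bases after the annotated gene start were not searched in any gene. The palindrome CACGTG (G-box), which contains the ABRE core on both strands, was in 6.49% of all promoters and in 0 of the 10. A single G-box counts here as 2 ABRE cores. The 8.84% thus includes promoters with 1 such site counted on both strands, unlike the 4 genes with separate sites. A DRE core was in 7.09% of all promoters and in 1 of the 10, RD29B.

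**Figure D1:**
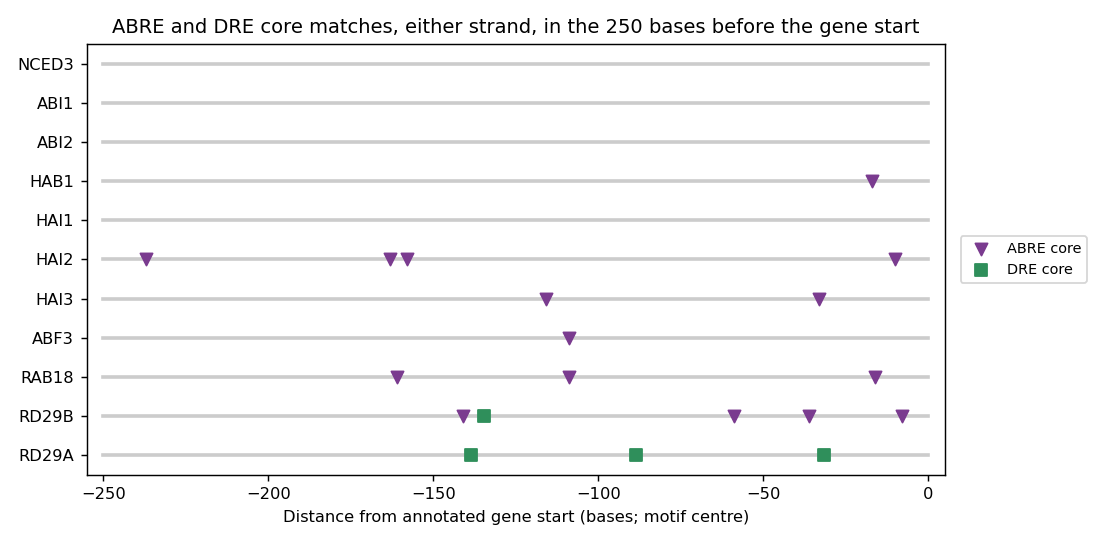
Positions of ABRE core (triangles) and DRE core (squares) matches on either strand in the 250 bases before the annotated start of the 10 genes and of RD29A; the x axis is distance from the start in bases. RD29B carries 4 ABRE cores and 1 DRE core, RD29A 3 DRE cores, and NCED3, ABI1, ABI2 and HAI1 no match.

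Library totals ran from 15188586 to 18809306 counts, and libraries of a genotype differed by more than counting noise (chi-square over degrees of freedom 3.32 to 7.65 between pairs), so none is a copy of another. The labels were checked on the mutated genes: DRM2, CMT2 and CMT3 were lower in ddcc, with log2 fold changes (log2FC) of −1.14, −0.46 and −1.69, and DRM1 had at most 1 count in any library. Leaf mesophyll markers were abundant, with a summed level of 34037 to 36735 CPM (counts scaled by library size) in wild type and 28828 to 29410 in ddcc, and 4 of the 5 were lower in ddcc, whose part in the results was not tested. Seed markers summed to at most 0.292 CPM, flower markers to at most 0.350 CPM and root markers to at most 4.32 CPM. Guard cell markers summed to 70.1 to 74.2 CPM in wild type and 70.4 to 76.7 CPM in ddcc, with 1 of 5 higher, 1 lower and 3 not called. The ddcc libraries lay apart on the second principal component, which held 7.71% of the variance, with scores of −20.9, 28.0 and −6.02 for replicates 1, 2 and 3 against −4.87 to 6.15 in wild type.

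Of the 10 ABA genes, 9 passed the expression filter and 7 of those rose in ddcc leaves: ABI1, ABI2, HAB1, HAI1, HAI2, ABF3 and RAB18. NCED3 and RD29B were not called, none fell, and the median log2 fold change of the 9 was 0.73. Over all 18498 tested features 15.5% were higher, 12.7% were lower, and the median log2FC was −0.003. The 10 genes were chosen with earlier results of these data known, so this contrast is no independent support. Calls rest on edgeR's quasi-likelihood test at a Benjamini-Hochberg adjusted p under 0.05. The same 7 genes had every ddcc library above every wild-type library, which held for 22.5% of all tested features, and 21.0% had every ddcc library below. With robust dispersion estimation 4 of the 9 were called, and the calls of HAI2, ABF3 and RAB18 were lost (adjusted edgeR p 0.122, 0.0890 and 0.0953). Over all tested features 2946 were called higher in that setting, against 2873 without it. In whole leaves, more RNA per cell and more cells expressing a gene cannot be told apart.

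**Figure D2:**
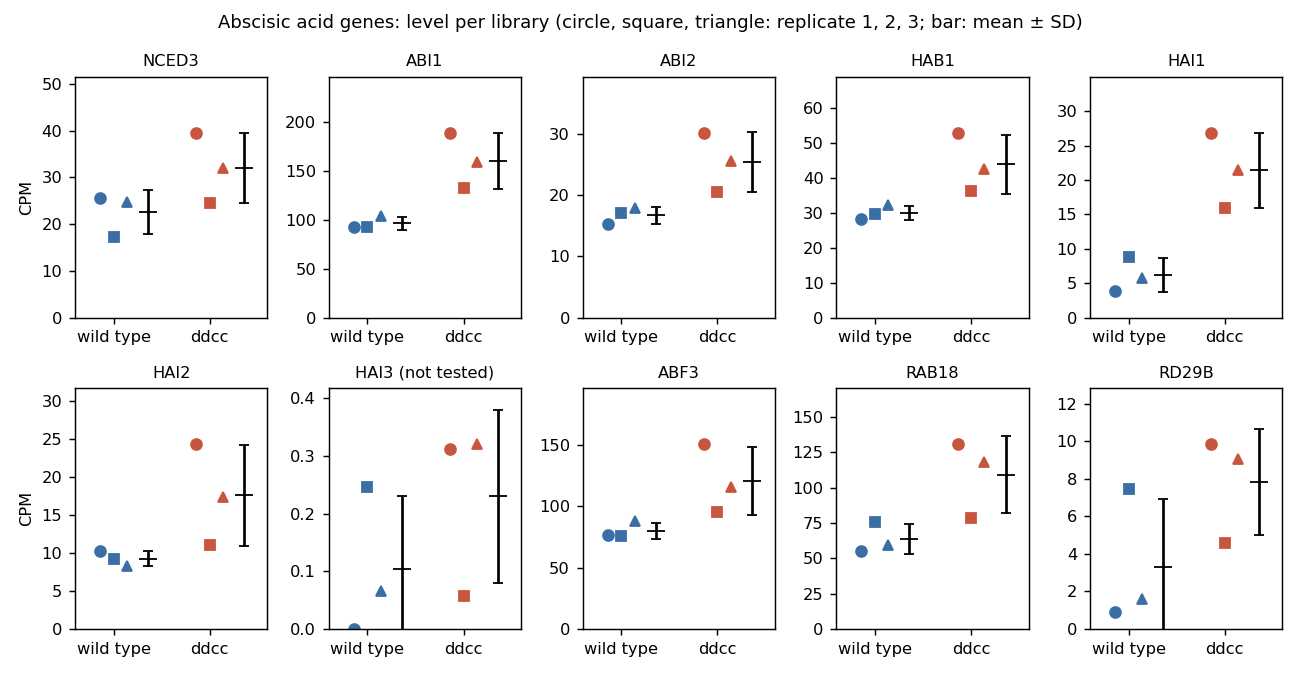
Level of each of the 10 genes in CPM (y axis, from 0) in the 3 wild-type (blue) and 3 ddcc (red) libraries; symbols mark replicates and bars the mean ± SD, which runs below 0 for wild-type HAI3 and RD29B and is cut there. The ddcc points lie above all wild-type points for ABI1, ABI2, HAB1, HAI1, HAI2, ABF3 and RAB18, and overlap them for NCED3, HAI3 and RD29B.

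The synthesis gene NCED3 (AT3G14440, chromosome 3, 4831286 to 4834015, minus strand) stood at 25.7, 17.3 and 24.8 CPM in wild-type replicates 1, 2 and 3 and at 39.6, 24.5 and 32.0 CPM in ddcc. The groups overlapped, since ddcc replicate 2 lay below the highest wild-type libraries. The log2FC of 0.51 (SE 0.17) did not pass the threshold (adjusted edgeR p 0.0527). It passed without ddcc replicate 2 (0.66, adjusted edgeR p 0.00399), with unscaled library totals (adjusted edgeR p 0.0417) and with no filter beyond 1 count (adjusted edgeR p 0.00600). In 10 of 15 alternative fits NCED3 stayed uncalled. Among these were robust dispersion estimation (adjusted edgeR p 0.217), DESeq2 (adjusted DESeq2 p 0.18) and leaving out wild-type replicate 2 (0.34, adjusted edgeR p 0.18). NCED3 is known to be expressed in the vasculature, and the phloem markers SUC2 and APL, summed, were at 242, 246 and 281 CPM in wild type and lower, at 224, 192 and 212 CPM, in ddcc. Both phloem markers were called lower, and their part in the NCED3 values was not tested.

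ABI1 (AT4G26080, chromosome 4, 13219915 to 13222376, minus strand) and ABI2 (AT5G57050, chromosome 5, 23087122 to 23089631, plus strand) encode paralogous PP2Cs first known from dominant ABA-insensitive mutants. The level of ABI1 was 92.9, 92.5 and 104 CPM in wild type, against 189, 132 and 159 CPM in ddcc. Even its lowest ddcc library exceeded the highest wild-type library. Its log2FC was 0.73 (SE 0.11, adjusted edgeR p 7.14e-04). ABI2 had 15.2, 17.0 and 17.9 CPM in wild type, against 30.2, 20.5 and 25.6 CPM in ddcc, with a log2FC of 0.61 (SE 0.13, adjusted edgeR p 0.00519). The libraries of ddcc spread more widely than those of wild type for both genes, and replicate 2 was the lowest.

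HAB1 (AT1G72770, chromosome 1, 27389948 to 27393327, plus strand) encodes a PP2C homologous to ABI1. It stood at 28.2, 29.7 and 32.1 CPM in wild type, against 52.9, 36.3 and 42.4 CPM in ddcc, a log2FC of 0.55 (SE 0.12, adjusted edgeR p 0.00594). Its closest paralog on the coding sequence was HAB2, with 79.2% identity over aligned bases, and HAB2 had 50.3 ± 0.993 CPM in wild type, against 52.0 ± 0.676 CPM in ddcc (SD, n = 3 each). The HAB2 log2FC of 0.05 (SE 0.05, adjusted edgeR p 0.530) was the smallest in size among the 7 tested clade A PP2Cs.

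The HAI genes are named for their strong induction by ABA. HAI1 (AT5G59220, chromosome 5, 23894404 to 23896939, minus strand) had the largest fold change of the 9 tested genes in the fit of all 6 libraries. It had 66, 143 and 88 counts in wild type, against 517, 278 and 400 in ddcc, or 3.85, 8.81 and 5.78 CPM against 26.9, 15.9 and 21.4 CPM. The 2 genotypes did not overlap, with a log2FC of 1.81 (SE 0.25, adjusted edgeR p 4.31e-04) and a ratio of mean CPM of 3.48.

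HAI2 (AT1G07430, chromosome 1, 2280746 to 2282828, minus strand) had 10.3, 9.12 and 8.28 CPM in wild type, against 24.3, 11.0 and 17.3 CPM in ddcc. Its ddcc replicate 2 lay just above the highest wild-type library, while replicate 1 was at 2.63 times the wild-type mean. The log2FC was 0.93 (SE 0.23, adjusted edgeR p 0.0136), or 0.61 without ddcc replicate 1. The call was lost when wild-type replicate 2 or 3 was left out (adjusted edgeR p 0.0503 and 0.0527).

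HAI3 (AT2G29380, chromosome 2, 12608675 to 12610350, plus strand) yielded 0, 4 and 1 counts in wild type, against 6, 1 and 6 in ddcc and did not pass the filter. At this depth 3 counts equal 0.156 to 0.197 CPM, so no fold is given. Between HAI2 and HAI3 the coding identity was 77.4%, and between ABI1 and ABI2 it was 79.3%. No 50-base stretch within an exon of the 10 genes occurs elsewhere in the TAIR10.1 genome. Reads of that length or longer that match within 1 exon without mismatch would thus not be shared between these paralogs. Reads across exon junctions and reads with mismatches were not tested. Read length is not given in the sources used here.

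ABF3 (AT4G34000, chromosome 4, 16295334 to 16298285, plus strand), which encodes a bZIP factor that binds ABREs, was at 76.9, 76.0 and 87.8 CPM in wild type, against 151, 95.3 and 116 CPM in ddcc. All ddcc libraries were above wild type, with replicate 2 near it. The log2FC was 0.59 (SE 0.14, adjusted edgeR p 0.00836).

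RAB18 (AT5G66400, chromosome 5, 26518277 to 26519447, minus strand) encodes a dehydrin, a hydrophilic protein that accumulates in drying tissue, and is a common marker of ABA response. Its level was 55.3, 75.9 and 59.7 CPM in wild type, against 131, 78.6 and 118 CPM in ddcc. Wild-type replicate 2 and ddcc replicate 2 nearly met. The log2FC was 0.78 (SE 0.17, adjusted edgeR p 0.00595).

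RD29B (AT5G52300, chromosome 5, 21237021 to 21239531, plus strand; also named LTI65) encodes a desiccation-responsive protein of unknown biochemical activity. It had 15, 121 and 24 counts in wild type, against 189, 80 and 169 in ddcc, or 0.875, 7.46 and 1.58 CPM against 9.85, 4.57 and 9.04 CPM. Wild-type replicate 2 lay above ddcc replicate 2, so the groups overlapped. The log2FC of 1.25 (SE 0.55) did not pass (adjusted edgeR p 0.116). It was 2.69 without wild-type replicate 2 (adjusted edgeR p 0.00186) and 1.52 without ddcc replicate 2 (adjusted edgeR p 0.0360). These were the highest wild-type and the lowest ddcc library of RD29B. Leaving out either must therefore raise the log2FC, and these calls are no further support. The log2FC also passed with no filter beyond 1 count (adjusted edgeR p 0.0199). In 11 of 15 alternative fits RD29B stayed uncalled. Among these were leaving out wild-type replicate 1 (0.79, adjusted edgeR p 0.291), robust dispersion estimation (adjusted edgeR p 0.358) and DESeq2 (adjusted DESeq2 p 0.383).

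RD29A (AT5G52310, chromosome 5, 21240717 to 21243644, plus strand), the next gene downstream, responds to cold and drought through DREs as well as to ABA. Its level was 125, 152 and 148 CPM in wild type, against 478, 298 and 329 CPM in ddcc, with a log2FC of 1.38 (SE 0.15, adjusted edgeR p 9.19e-05). Unlike RD29B, it was even across wild type. Per kilobase of exon, the log2 ratio of RD29B to RD29A was −6.87, −4.05 and −6.26 in wild type and −5.31, −5.73 and −4.89 in ddcc. The groups overlapped, and the difference of 0.42 had an exact permutation p of 0.700 (two-sided), which cannot go below 0.1 with 3 libraries against 3. The coding sequences of the pair share 79.9% of aligned bases.

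Levels were set side by side per kilobase of exon. In wild type RAB18 was highest at 58.4 ± 9.97 CPM per kb, followed by ABI1 at 44.5 ± 2.98, ABF3 at 32.8 ± 2.69 and HAB1 at 10.7 ± 0.701 CPM per kb (SD, n = 3 each). These 4 did not overlap between libraries. NCED3 at 8.28 ± 1.70 and ABI2 at 7.32 ± 0.591 CPM per kb overlapped, as did HAI1 at 2.95 ± 1.20 and RD29B at 1.52 ± 1.66 CPM per kb. HAI2 lay between these pairs at 4.85 ± 0.540 CPM per kb, and HAI3 was last at 0.0696 ± 0.0854 CPM per kb. In ddcc RAB18 at 100 ± 24.9, ABI1 at 73.8 ± 13.2 and ABF3 at 49.4 ± 11.5 CPM per kb remained the highest, but their ranges overlapped. HAI1 moved up in the order: in wild type it was below HAI2 in every library, and in ddcc it was above, at 12.9, 7.63 and 10.3 against 12.8, 5.76 and 9.06 CPM per kb for HAI2. The margin in ddcc replicate 1 was small.

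The ddcc libraries differed from one another in the same way for every tested member. ddcc replicate 1 was the highest, replicate 3 the middle and replicate 2 the lowest for 9 of 9 genes, a pattern noticed after the values were seen. This order was found in 18.1% of all 18498 tested features and in 21.3% of the 2873 called higher. Relative to the ddcc mean, the median deviation of the 9 genes on the log2 scale was 0.33 in replicate 1, −0.36 in replicate 2 and 0.03 in replicate 3. The median SD of log2 CPM was 0.344 within ddcc, against 0.107 over all tested features. In wild type it was 0.158 against 0.104, and no wild-type library was highest for more than 4 of the 9 genes. The order is also that of the ddcc scores on the second principal component and of the summed phloem markers. Other marker sums did not share it. Mesophyll markers ran the opposite way, at 28828, 29410 and 28842 CPM in ddcc replicates 1, 2 and 3. Guard cell markers, at 72.4, 70.4 and 76.7 CPM, and the scarce root, seed and flower markers had yet other orders. Totals were 18809306, 17265251 and 18697065 counts for ddcc replicates 1, 2 and 3. The part of these in the result was not tested.

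Even the lowest ddcc library lay above the wild-type mean for all 9 genes, by 1.09 times for NCED3 to 2.59 times for HAI1. In ddcc replicate 1 the same ratio ran from 1.75 for NCED3 to 4.38 for HAI1. Without ddcc replicate 2 all 9 genes were called higher, and the count over all features was 2941 against 2873 in the fit of all libraries. This library was the lowest of ddcc for all 9, so leaving it out must raise their ddcc means. The added calls are therefore no further support.

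**Figure D3:**
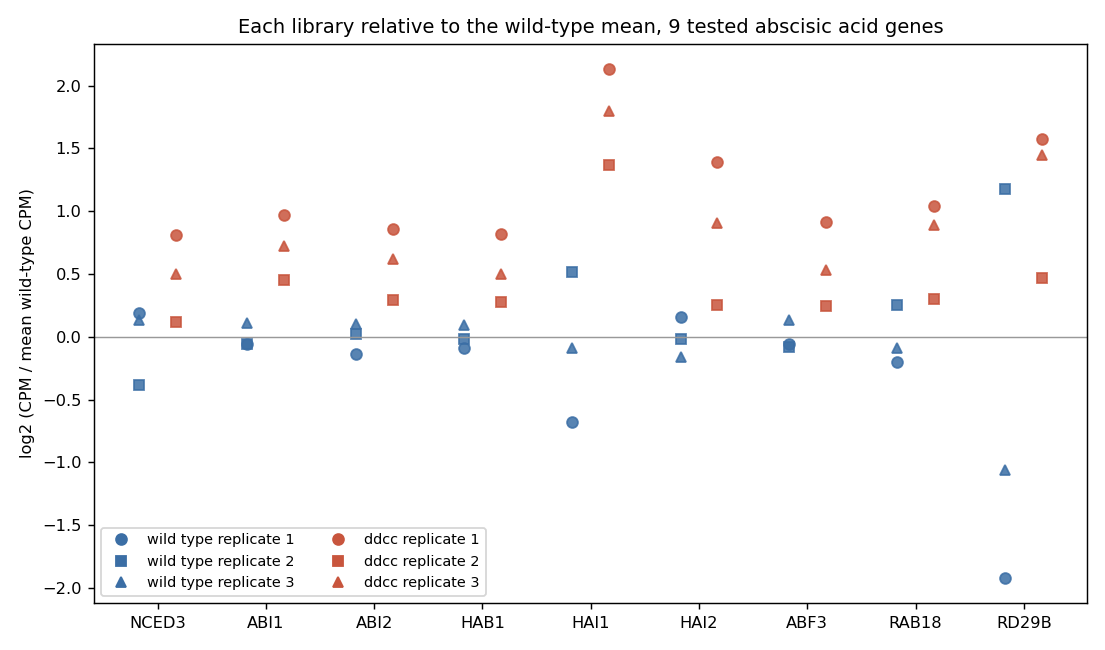
CPM of each library relative to the wild-type mean, as log2 (y axis), for the 9 tested genes; blue is wild type, red is ddcc, and symbols mark replicates 1, 2 and 3. In ddcc replicate 1 is above replicate 3 and replicate 3 above replicate 2 for all 9 genes, and wild-type replicate 2 stands high for RD29B and HAI1.

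The rest of the pathway was described with a list of 68 further genes in 8 roles, of which 53 were tested. In total 27 were higher (50.9%) and 3 lower (5.66%), with a median log2 fold change of 0.31. Over all tested features 15.5% were higher and 12.7% lower, the shares to set beside the counts by role. The list was drawn up with earlier results of these data known, so these contrasts are no independent support. The share called differed by role: 14 of 18 response targets and 3 of 4 transcription factors were higher and none lower, while of 8 receptor genes 2 were higher and 1 lower. In synthesis 1 of 5 was higher and 1 lower, and in inactivation and release 2 of 7 were higher and 1 lower. Differences between roles were not tested.

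Among response targets, 20 were listed and 18 tested beside RAB18 and RD29B. By smallest p the called genes were KIN2, a small cold- and ABA-induced protein, RD29A, HB-12, a homeodomain-leucine zipper factor, and P5CS1, which makes proline. KIN2 rose from 942 ± 15.4 to 1315 ± 45.5 CPM (log2FC 0.48, SE 0.05, adjusted edgeR p 4.85e-05). HB-12 rose from 18.4 ± 0.947 to 35.3 ± 5.74 CPM (log2FC 0.94, SE 0.11, adjusted edgeR p 1.43e-04). P5CS1 rose from 349 ± 24.0 to 718 ± 165 CPM (log2FC 1.04, SE 0.13, adjusted edgeR p 2.09e-04). The 4 tested targets that were not called were RD22, ADH1, MAPKKK18 and LEA7, with log2FC values of −0.13, −0.40, −0.08 and 0.41. The sign turned for LEA7 without ddcc replicate 1 (−0.026) and for MAPKKK18 without ddcc replicate 2 or 3 (0.075 and 0.016). The calls of RD26, LTI30, LEA4-5, AFP3 and NAC019 were each lost on leaving out at least 1 library (adjusted edgeR p 0.0503 to 0.0890 in those fits). That of NAC019 was also lost with robust dispersion estimation (adjusted edgeR p 0.133). Several called targets are also cold-regulated, and the list does not separate cold from ABA response. The ddcc order of replicates 1, 3 and 2 was seen in 14 of the 18, against 18.1% of all tested features and 21.3% of those called higher.

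Among transcription factors the bZIP gene ABI5, best known from seeds, rose from 1.65 ± 0.678 to 4.40 ± 1.27 CPM (log2FC 1.43, SE 0.29, adjusted edgeR p 0.00425). ABF2 and ABF4, close relatives of ABF3, had log2FC values of 0.48 (adjusted edgeR p 0.00845) and 0.36 (adjusted edgeR p 0.00284). ABF1, at 0.08, was not called, and ABI3 and ABI4, 2 factors of seeds and seedlings, had 0 counts in every library. For ABF4, 29.1% of the exon length lies under exons of genes on the other strand, and use of strand in counting is not given in the sources used here.

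Of the clade A PP2Cs outside the 10, PP2CA rose from 87.0 ± 4.74 to 130 ± 29.4 CPM (log2FC 0.58, SE 0.13, adjusted edgeR p 0.00666), though not with robust dispersion estimation (adjusted edgeR p 0.0716). AHG1, a phosphatase of germinating seeds, had 0 counts in every library. With the 5 called genes ABI1, ABI2, HAB1, HAI1 and HAI2 this made 6 of 7 tested clade A PP2Cs higher and none lower. Over all tested features 15.5% were higher and 12.7% lower. Outside the 10, 1 of 2 tested clade A PP2Cs was called.

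The receptor gene PYL8 rose from 88.7 ± 2.19 to 129 ± 4.51 CPM (log2FC 0.54, SE 0.05, adjusted edgeR p 3.65e-05). PYL7 had a log2FC of 0.31 (adjusted edgeR p 0.0171) and PYL1 of −0.51 (adjusted edgeR p 0.0420). Both calls were lost without wild-type replicate 2 or ddcc replicate 1, and that of PYL1 also with unscaled library totals and without any of wild-type replicates 1 and 3 and ddcc replicate 3 (largest adjusted edgeR p with 1 library left out 0.0670 for PYL7 and 0.141 for PYL1). Exons of other-strand genes cover 49.7% of PYL7. The ddcc order of the ABA genes was found in 0 of the 8 tested receptor genes, against 18.1% of all tested features. With 8 genes, 0 is near that share.

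The kinase genes SNRK2.2 and SNRK2.6 (OST1), the latter acting in guard cells, were higher by log2FC values of 0.22 and 0.31 (adjusted edgeR p 0.00522 and 0.0150). The call of SNRK2.6 was lost without wild-type replicate 3 or ddcc replicate 3 (largest adjusted edgeR p 0.0607). SNRK2.3, SNRK2.7 and SNRK2.8 were not called, with log2FC values of 0.07, −0.63 and 0.36. SNRK2.8 (adjusted edgeR p 0.0568) was called higher without wild-type replicate 1 (0.52, adjusted edgeR p 0.0135) or ddcc replicate 2 (0.43, adjusted edgeR p 0.0274). These were its highest wild-type and its lowest ddcc library, so leaving out either must raise the log2FC. SNRK2.8 was also called higher with unscaled library totals, no filter beyond 1 count or robust dispersion estimation (adjusted edgeR p 0.0331, 0.0199 and 0.0429).

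In synthesis, ABA1, the zeaxanthin epoxidase of an early step, fell from 269 ± 11.5 to 206 ± 17.1 CPM (log2FC −0.38, SE 0.07, adjusted edgeR p 0.00159). AAO3, the aldehyde oxidase of the last step, rose from 29.1 ± 3.88 to 39.1 ± 2.56 CPM (log2FC 0.43, SE 0.09, adjusted edgeR p 0.00651). Other-strand exons cover 13.8% of AAO3 and 39.7% of ABA2. ABA2, ABA3 and ABA4 were not called, with log2FC values of −0.28, 0.19 and −0.04, and the sign of ABA4 turned without ddcc replicate 3 (0.029). ABA2 passed the threshold, as lower in ddcc, on leaving out ddcc replicate 1 (adjusted edgeR p 0.0368). That was its highest ddcc library, so leaving it out must lower the ddcc mean. The dioxygenase genes NCED2, NCED5, NCED6 and NCED9 had at most 9 counts in any library and did not pass the filter, so NCED3 was the only dioxygenase of the list that could be tested.

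The catabolic gene CYP707A3, an ABA 8′-hydroxylase, rose from 7.19 ± 1.09 to 13.5 ± 1.34 CPM (log2FC 0.90, SE 0.12, adjusted edgeR p 4.07e-04). CYP707A2 had a log2FC of 0.69 (adjusted edgeR p 0.0385), a call lost without any 1 of the wild-type libraries, ddcc replicate 1 or ddcc replicate 3 (largest adjusted edgeR p with 1 library left out 0.122). The CYP707A2 call was also lost on all 6 libraries with DESeq2 (adjusted DESeq2 p 0.154) and with a replicate block (adjusted edgeR p 0.0705). BGLU33, a glucosidase that releases ABA from its glucose ester, fell from 140 ± 12.8 to 93.5 ± 3.83 CPM (log2FC −0.58, SE 0.07, adjusted edgeR p 1.67e-04). Of the transporters, the importer NPF4.6 had a log2FC of 0.30 (adjusted edgeR p 0.00296). The exporter DTX50 had one of 0.81 (adjusted edgeR p 0.0469), a call lost without any 1 of the wild-type libraries, ddcc replicate 1 or ddcc replicate 2 (largest adjusted edgeR p with 1 library left out 0.133). The DTX50 call was also lost with DESeq2 (adjusted DESeq2 p 0.0569).

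**Figure D4:**
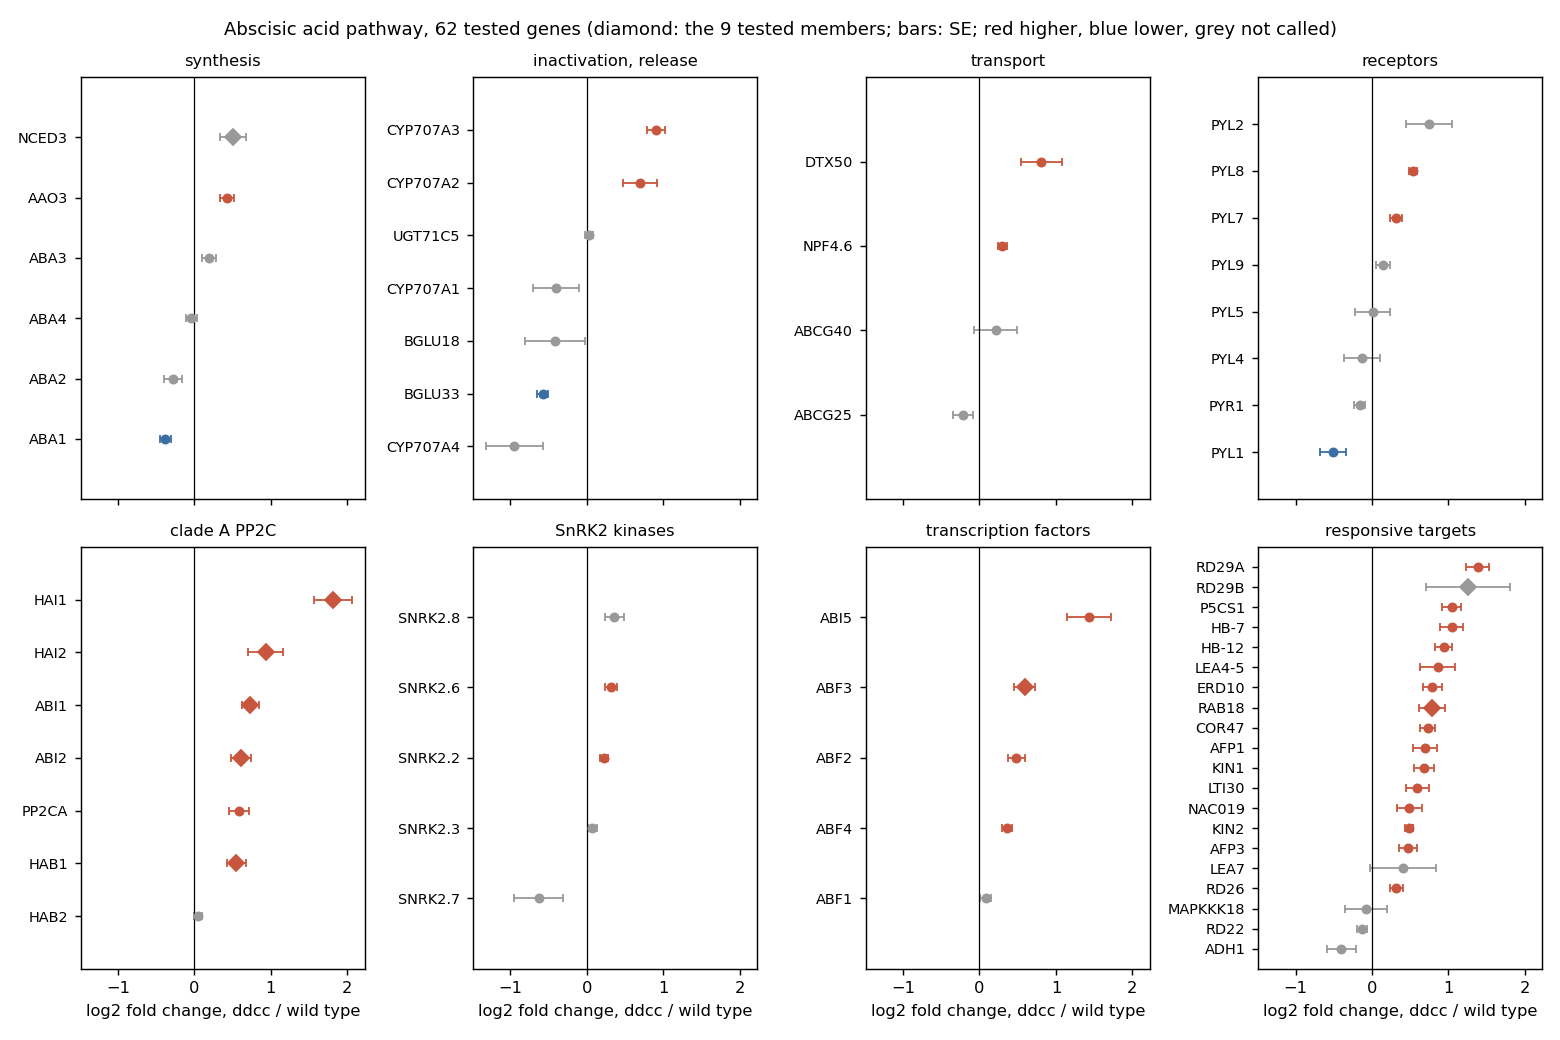
Log2 fold change of ddcc over wild type (x axis) with its SE for the 62 tested genes of the pathway by role; diamonds are the 9 tested members, and red, blue and grey stand for higher, lower and not called. Most clade A PP2Cs, transcription factors and response targets lie to the right of 0, while synthesis, inactivation and receptor genes lie on both sides.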

How the data were processed

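The deposited table of all 6 libraries holds raw read counts of genes and transposable elements. Per the submitters' processing notes, Trim Galore 0.6.0, cutadapt 1.15, STAR 2.7.0f and the TAIR10 build were used; the counting program, strand and treatment of reads mapping to several places are not given in the sources used here. Of the 62524 features, 18498 passed edgeR's filterByExpr (minimum count 10) and were tested in 1 fit of genotype with TMM scaling, by edgeR (version 4.0.16, under R 4.3.3) with its quasi-likelihood test and Benjamini-Hochberg adjustment over all of them. The test was run on simulated data first. CPM is the count over the TMM-scaled library size, and the SE was taken as log2FC in size over √F. Coordinates, exon lengths and sequences come from RefSeq TAIR10.1, in which all 106 listed loci were found. Alternatives were other scaling, filters and dispersion, DESeq2 1.42.0, a replicate block, a stricter threshold and leaving out libraries. The members and lists were chosen with earlier results of these data known. The text names all 10 members, the mutated genes and, per role, up to 4 further called genes by smallest p; the genes not called or not tested and HAB2, RD29A beside RD29B, BGLU18, and targets whose call was lost were named after their values were seen. A batch table that concerns moss samples was left out.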

Additional observations from a re-analysis of the deposited data

How the results depend on the processing

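The number of ABA genes called higher was 7 and stayed between 6 and 9 when each library was left out in turn, and none was called lower in any setting. Robust dispersion estimation gave 4, while over all features it called 2946 higher. Of the 135 alternative fits of the 9 tested genes, none turned a direction, 5 ended a call and 9 made one. For the pathway list of 78 genes, 34 were called higher (27 to 36 with a library left out) and 3 lower (2 to 4). Leaving out wild-type replicate 2 and ddcc replicate 2 together, chosen after the data were seen, gave 5 lower and 9 ABA genes higher. BGLU18, called lower also without ddcc replicate 2 alone, and CYP707A4 were added to the 3. For BGLU18 and CYP707A4 ddcc replicate 2 was the highest of ddcc, and for the 9 ABA genes the lowest. Leaving it out must lower the ddcc means of the former and raise those of the latter, so the added calls are no further support. Over all features the counts were 2873 higher (2282 to 2941) and 2341 lower (1629 to 2348), and 1795 and 1195 at an adjusted p under 0.01. The difference in the RD29B to RD29A log2 ratio was −0.074 with a pseudocount of 0.5 CPM per kb and ran from −0.15 to 1.25 with a library left out, so its direction is not settled. The cause was not tested. Library totals without a composition factor moved the median log2 fold change of all features to 0.03. Over all tested features same-numbered libraries did not deviate together (correlations of −0.104, −0.0775 and 0.0262), so no pairing by number was seen there. Pairing in a part of the genes was not tested. With a replicate block 8 ABA genes were called higher, NCED3 among them (adjusted edgeR p 0.00199). The NCED3 libraries ranked 1, 3, 2 from high to low in both genotypes. HAI3 was too rare for a fold at this depth, and RD29B rests on 15 counts in wild-type replicate 1.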

Other observations

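BGLU18, a glucosidase of the endoplasmic reticulum that releases ABA from its glucose ester, went against the ddcc library order of the 9 tested ABA genes. It stood at 45.8, 214 and 107 CPM in ddcc replicates 1, 2 and 3, against 186, 170 and 132 CPM in wild type, and was singled out after its values were seen. Other pathway genes also had their highest ddcc level in replicate 2, among them PYL5 at 3.08, 5.89 and 3.69 CPM and ABCG40 at 3.75, 7.03 and 3.26 CPM in ddcc replicates 1, 2 and 3. For BGLU18 the genotypes overlapped, and its log2FC was −0.42 (SE 0.39, adjusted edgeR p 0.469). Without ddcc replicate 2 alone it was called lower, with a log2FC of −1.09 (adjusted edgeR p 0.00681). That library was its highest of ddcc, so leaving it out must lower its ddcc mean, and the call is no further support.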
